A study of Homo sapiens with 42 samples.

Results

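The genes described here are 48 genes that copy DNA in S phase, read across the 10 groups of an RNA-seq study of AC16 cells, a human cell line labelled cardiomyocyte-like. They were taken by name from the deposited gene table, which held all 48 among its 60606 genes. They cover 8 roles, from the loading of the replicative helicase at origins to the supply of nucleotides and histones. The study lowered RPL3, which sits in the large subunit of the ribosome, and asked what follows when its muscle paralog RPL3L, in wild-type or altered form, is present in its place. Polyadenylated RNA of whole cells was sequenced in 30 libraries, 10 groups of 3.

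All groups received doxycycline at 1 ug/ml. In 9 groups the cells carried a doxycycline-inducible hairpin against RPL3, and in 7 of these also RPL3L with a single residue altered. The 7 are named by the change: P291L, D308N, D308V, R343W, G27D, R161W and T189M. RPL3L-WT cells carried the RPL3 hairpin with wild-type RPL3L, shRPL3 cells the RPL3 hairpin alone, and shScramble cells a scrambled inducible hairpin. The hairpin lines were kept by hygromycin selection after lentiviral delivery, and the RPL3L lines were then sorted for a fluorescent signal, so each line is a selected population. The label of P291L calls that variant inducible as well, which the labels of the other variants do not. Cells of every RPL3L line keep their own RPL3 gene under the hairpin. The labels do not tie the replicates to separate cultures. The p-values therefore measure only the spread between these samples, which may be technical.

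DNA replication starts when the origin recognition complex, CDC6 and CDT1 load the ring of MCM2 to MCM7 onto DNA in G1. In S phase CDC45 and the GINS complex join the ring to make the active helicase, primase and the polymerases copy both strands, and PCNA, loaded by RFC, keeps the polymerases on the template. Many of these genes are transcribed from late G1 on by E2F factors, which the RB family restrains, and their mRNA levels are therefore commonly used as a readout of cells in S phase. Levels here come from pooled cells, in which fewer cells in S phase and less of an mRNA per cell cannot be told apart.

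The values were deposited as TPM, transcript counts scaled to the same total in each library, which allow for gene length and let levels of different genes be compared but keep no depth, so the depth of the libraries is unknown. RPL3, the target of the hairpin, had 536 ± 35.2 TPM in shRPL3 against 1570.0 ± 38.8 TPM in shScramble (log2 fold change -1.55, SE 0.18, adjusted p = 6.22e-07). It was higher in R161W (1438 ± 334 TPM, adjusted p = 9.76e-06) and T189M (942 ± 263 TPM, adjusted p = 0.0160) than in RPL3L-WT (519 ± 134 TPM), and also in R343W (730.2 ± 6.62 TPM, adjusted p = 0.0332), where it did not pass with the kind of library described next as a term (adjusted p = 0.0843). One shRPL3 library, replicate 3, held 121 TPM of RPL3L although that line has no RPL3L construct. The libraries were of 2 kinds that no label names. On 449 pseudogenes, 6 libraries (RPL3L-WT 1 and 2, G27D 3, R161W 1, T189M 1 and 2) stood apart from the other 24: in order along component 1 of a principal component analysis, the widest gap between neighbours was 16.36 and the next 1.65. These are called the second kind. Of 12 cardiomyocyte markers, 10 were under 1 TPM in all 30 libraries (the others were GATA4 and TNNI3), and the list summed to 1.69 to 6.19 TPM. Of 8 fibroblast markers, all were above 1 TPM in every library, with a sum of 5012 to 7384 TPM.

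All 48 genes averaged over 1 TPM, the minimum for testing, so none was lost to the filter. TPM count per length, so levels of different genes may be set side by side. The ranges below span both kinds of library, and 10 of the 48 were higher and 28 lower in the second kind. Among the genes that license origins, CDC6, which helps to load the MCM ring, ranged over 76.9 to 113 TPM (median 92.1) in the 30 libraries, and ORC1, an ATP-binding subunit of the origin recognition complex, over 14.7 to 27.9 TPM (median 22.0). The 6 subunits of the MCM ring stand in equal numbers in the protein, but their mRNA levels did not match: MCM4 averaged 305, MCM7 253, MCM5 184, MCM3 141, MCM2 108 and MCM6 41.0 TPM. MCM4 ranged over 198 to 613 TPM, and its median of 249 TPM was below the 258 TPM of MCM7. The mean of MCM4 includes the 6 libraries of the second kind, at 507.5 to 612.6 TPM. GINS3 had the lowest mean of the helicase group, 24.7 TPM, at 17.1 to 31.5 TPM (median 25.6), with GINS1 close to it at 19.1 to 33.4 TPM (median 25.5). PCNA had the highest mean of all 48, 322 TPM, at 262 to 435 TPM (median 308.1), though TK1, thymidine kinase, had the higher median, 324 TPM. RFC3, a subunit of the loader that opens the PCNA ring, was the lowest of the clamp group, at 26.7 to 56.2 TPM (median 47.0). Among the polymerase genes, POLD2, a subunit of polymerase delta, ranged over 169 to 241 TPM (median 220.2) and POLE2, of polymerase epsilon, over 15.6 to 29.9 TPM (median 23.2). FEN1, which trims Okazaki fragments, lay at 75.0 to 114 TPM (median 92.7) and LIG1, which joins them, at 25.3 to 61.2 TPM (median 34.7). RRM2, the regulatory subunit of ribonucleotide reductase, lay at 225 to 433 TPM (median 302), above RRM1, the catalytic subunit, at 90.8 to 156 TPM (median 121). SLBP, which binds histone mRNAs, lay at 79.8 to 125 TPM (median 99.97) and CHAF1B, a histone chaperone subunit, at 17.0 to 25.6 TPM (median 21.4). ETAA1, which binds RPA at stalled forks and activates the kinase ATR, was the lowest of the 48, at 6.39 to 18.8 TPM (median 8.39), while TIPIN, of the same role, lay at 26.8 to 51.2 TPM (median 40.4). By GENCODE 29, 15 of the 48 genes overlap another protein-coding gene, such as TYMS with ENOSF1, RPA3 with UMAD1, and POLA2, POLD1, PRIM1 and RRM2 with readthrough genes, so their reads may be divided. Pseudogenes bearing the name of a member exist for 8 of the 48, and 0 of these pseudogenes reached a mean of 1 TPM.

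**Figure D1:**
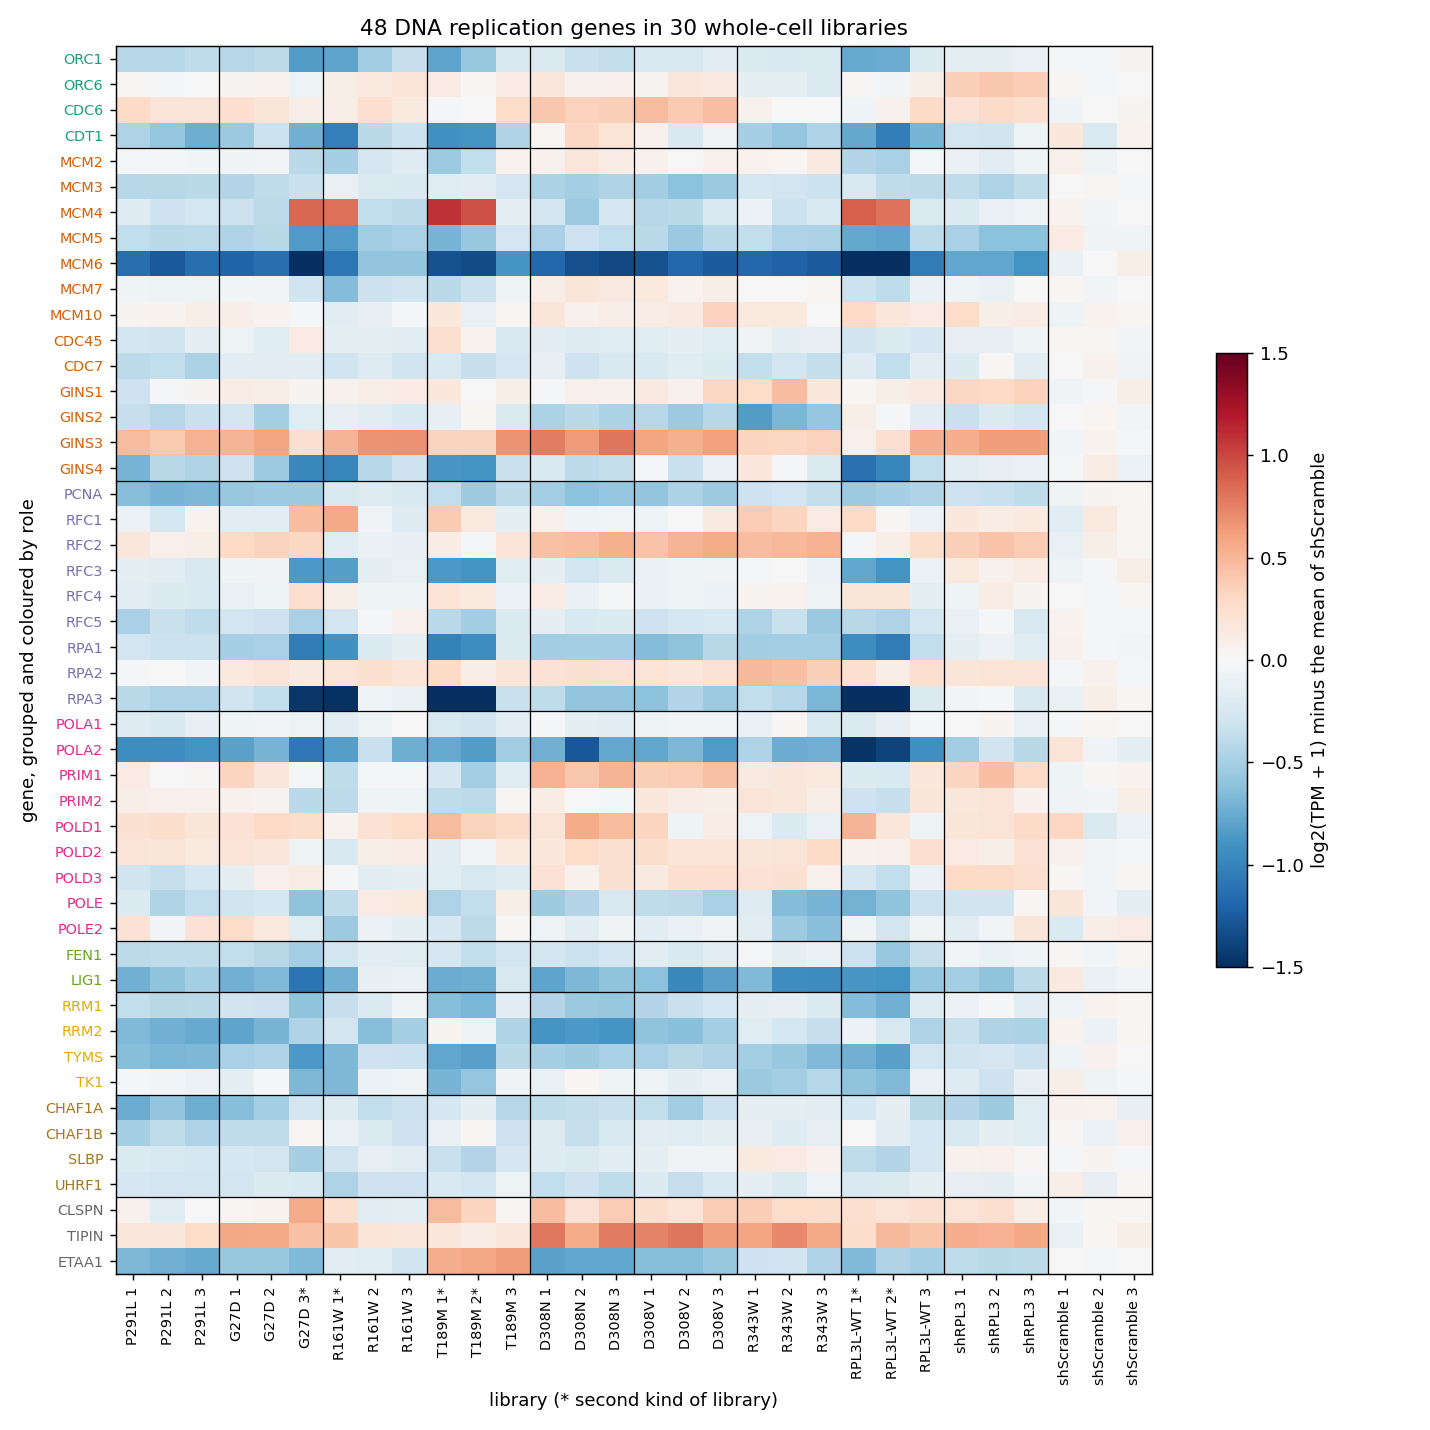
Level of each of the 48 replication genes (rows, grouped and coloured by role) in each of the 30 libraries (columns, by group), as log2(TPM + 1) minus the mean of the 3 shScramble libraries; an asterisk marks the 6 libraries of the second kind. MCM6 is below shScramble in every RPL3-hairpin group, ETAA1 is high in T189M, and MCM4 and RPA3 stand out in the libraries with an asterisk.

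The level of most of these genes differed somewhere among the 10 groups. A limma F test on log2(TPM + 1) called 42 of the 48 at an adjusted p under 0.05, where it called 73.4% of all 14426 genes tested, and 47 of the 48 once the library kind was a term of the model, where it called 78.8% of all genes. MCM4, RFC1, RFC4, RPA3, POLA1 and TK1 did not pass without that term. The highest group mean was 1.48 times the lowest in the median over the 48 genes, 1.18 times for POLD2 at the least, 2.70 times for MCM6 and 2.83 times for ETAA1. Within the 24 libraries of the first kind, 31 genes had a ratio under 1.5 and 2, MCM6 and ETAA1, a ratio of at least 2. shScramble had the highest mean for 23 of the 48 genes and P291L the lowest for 11, both counts being the same within the first kind. The summed level of the 48 genes averaged 4294 ± 60.5 TPM in P291L and 4817 ± 5.46 TPM in shRPL3, against 5299 ± 47.4 TPM in shScramble, whose mean was the highest of the 10 groups.

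Upon knockdown of RPL3 alone, in shRPL3 against shScramble, some of the genes rose and others fell, at shares near those of all genes. Of the 48, 9 were higher and 10 lower (against 17.2% and 18.0% of all genes), with medians of -0.10 for the 48 and -0.01 for all genes on the log2 scale. With the library kind as a term, 11 were higher and 14 lower (52.1% of the 48, against 48.9% of all genes in either direction). With median-ratio scaling of the libraries, 9 were higher and 10 lower (39.6% against 37.4%). Without shRPL3 3, the library that held RPL3L, 9 were higher and 9 lower. MCM3, MCM5, MCM6, GINS2, PCNA, POLA2, LIG1, RRM2, CHAF1A and ETAA1 fell, and ORC6, CDC6, GINS1, GINS3, RFC2, RPA2, PRIM1, POLD3 and TIPIN rose.

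The MCM ring was where the knockdown showed its largest decrease among the 48. MCM6 (chr2:135839626-135876426, minus strand) had 47.0, 46.9 and 42.9 TPM in the 3 shRPL3 libraries, against 75.9, 81.1 and 86.7 TPM in shScramble. The groups did not overlap, and MCM6 fell (log2 fold change -0.82, SE 0.15, adjusted p = 0.000118). MCM5 (chr22:35400063-35425430, plus strand) had 178, 164 and 163 TPM in shRPL3 and 273, 241 and 239 TPM in shScramble. All 3 shRPL3 libraries were below all 3 of shScramble (log2 fold change -0.57, SE 0.12, adjusted p = 0.000693). MCM3 (chr6:52264009-52284881, minus strand) had 135, 127 and 135 TPM in shRPL3 and 176, 179 and 174 TPM in shScramble, a decrease with a narrow spread (log2 fold change -0.41, SE 0.05, adjusted p = 6.32e-07). The other subunits of the ring did not pass the test. MCM2 averaged 106 ± 3.96 TPM in shRPL3 and 115 ± 6.23 TPM in shScramble (adjusted p = 0.529), with overlapping libraries. MCM4 averaged 264 ± 12.6 TPM in shRPL3 and 289 ± 9.70 TPM in shScramble (adjusted p = 0.803), with no overlap. That test uses 1 spread for all 10 groups, and some groups mix the 2 kinds of library, which differed by 1.17 in MCM4 on the log2 scale. It therefore says little about a change of this size in MCM4. MCM7 averaged 259 ± 9.60 TPM in shRPL3 and 268 ± 7.12 TPM in shScramble (adjusted p = 0.691), with overlap (mean ± SD, n = 3 each).

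**Figure D2:**
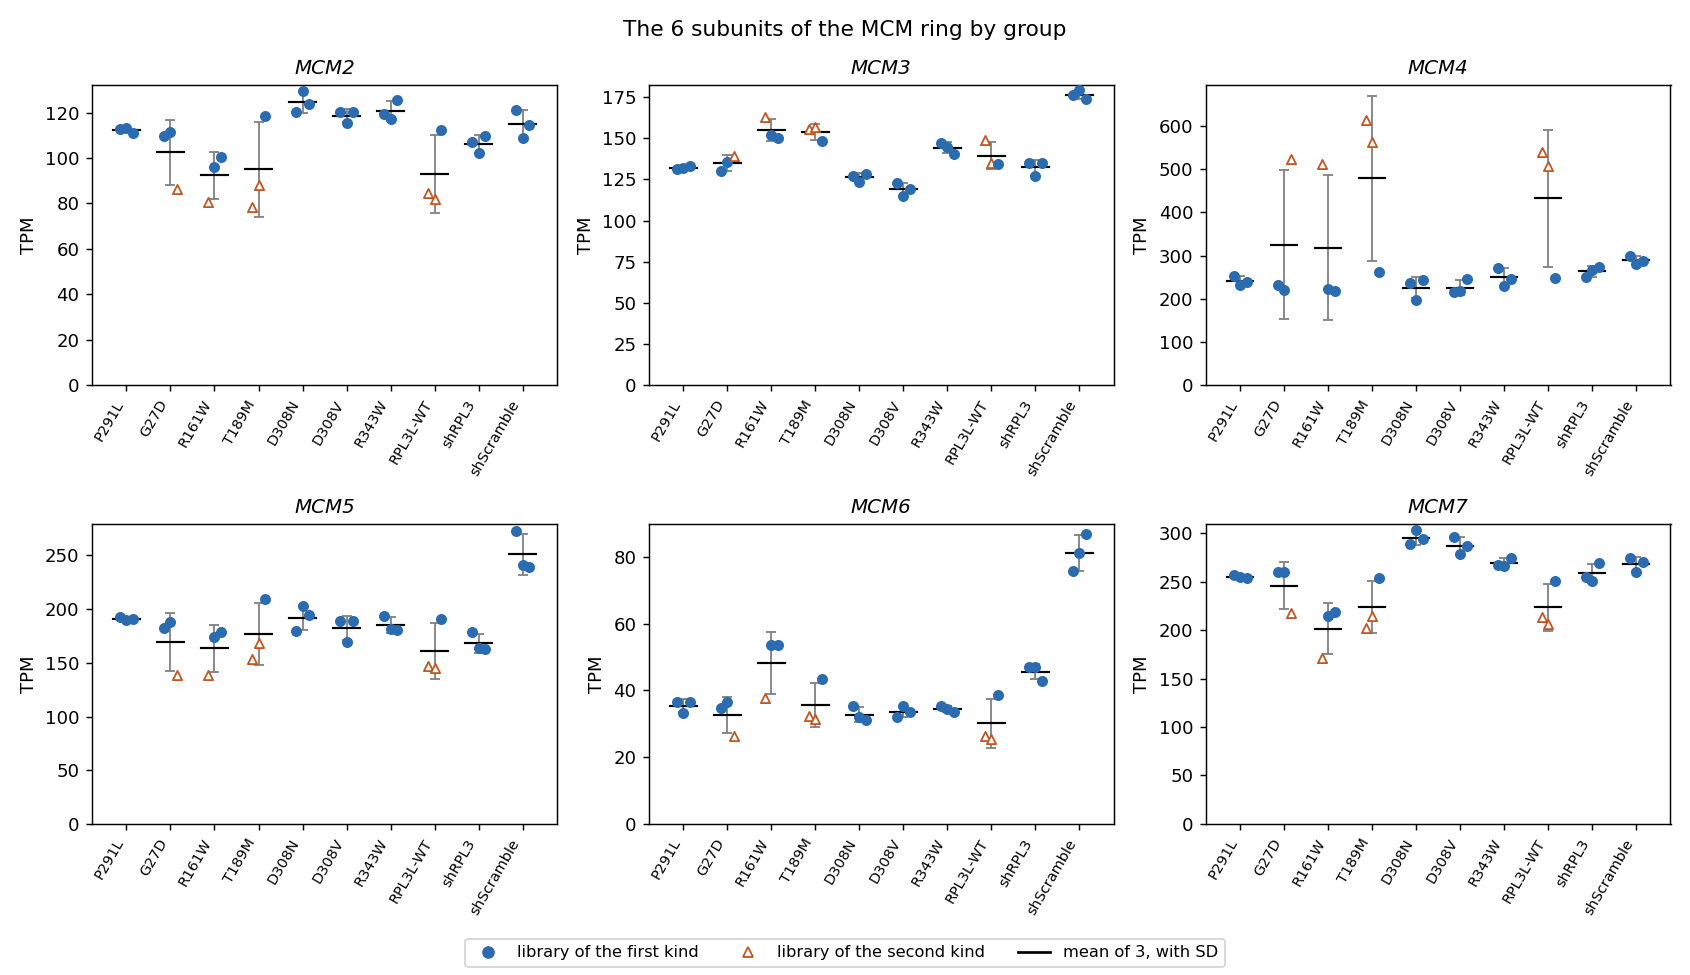
TPM of the 6 MCM ring genes in the 10 groups, RPL3L variants to the left, then RPL3L-WT, shRPL3 and shScramble; each point is a library, bars are the mean of 3 and its SD, and open triangles are libraries of the second kind. MCM6 and MCM5 are highest in shScramble, and MCM4 lies between 507.5 and 612.6 TPM in the 6 libraries of the second kind, above all others.

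Other members of the fork fell with MCM3, MCM5 and MCM6. PCNA, the sliding clamp, had 342.7, 338 and 327 TPM in shRPL3 and 405, 435 and 435 TPM in shScramble (log2 fold change -0.34, SE 0.05, adjusted p = 1.22e-05). LIG1, which seals nicks between Okazaki fragments, had 38.6, 36.1 and 41.9 TPM in shRPL3 and 61.2, 51.7 and 53.8 TPM in shScramble (log2 fold change -0.50, SE 0.16, adjusted p = 0.0147). Both genes had separate groups, but the call of LIG1 was lost without shRPL3 2 or without shScramble 1. RRM2 had 329.9, 304 and 299 TPM in shRPL3 and 433, 393 and 425 TPM in shScramble (log2 fold change -0.42, SE 0.11, adjusted p = 0.00442). The other genes that fell were POLA2 (log2 fold change -0.41), ETAA1 (-0.39), CHAF1A (-0.38) and GINS2 (-0.27), of which POLA2 lost its call without shRPL3 1 or 3 or without shScramble 1 or 2 and GINS2 without shRPL3 1. GINS2 also did not pass with scaling (-0.28, adjusted p = 0.0601). Of the 4 nucleotide supply genes RRM2 alone passed, and TYMS, thymidylate synthase, with 313 ± 8.97 TPM in shRPL3 and 384 ± 18.2 TPM in shScramble, did so with the library kind as a term (adjusted p = 0.0663 without it and 1.19e-06 with it). In all, 3 of the 4 were lower with that term, 3 within the first kind and 2 with scaling.

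The genes that rose were led by a helicase subunit and a fork protection factor. GINS3 had 26.1, 27.7 and 27.7 TPM in shRPL3 and 17.1, 18.4 and 17.3 TPM in shScramble, with no overlap (log2 fold change 0.60, SE 0.10, adjusted p = 6.58e-05). TIPIN, which with TIMELESS steadies the fork, had 42.9, 42.2 and 44.0 TPM in shRPL3 and 26.8, 29.5 and 30.9 TPM in shScramble (log2 fold change 0.55, SE 0.08, adjusted p = 8.39e-06). TIMELESS itself was called lower in this comparison. RFC2, a clamp loader subunit, had 79.7, 83.9 and 80.9 TPM in shRPL3 and 57.4, 66.3 and 63.1 TPM in shScramble (log2 fold change 0.38, SE 0.07, adjusted p = 9.15e-05). GINS3, TIPIN and RFC2 had all shRPL3 libraries above all shScramble libraries. ORC6, of the origin recognition complex, had 75.3, 78.1 and 76.0 TPM in shRPL3 and 59.2, 57.7 and 59.0 TPM in shScramble (log2 fold change 0.38, SE 0.05, adjusted p = 6.01e-06). PRIM1, the catalytic primase subunit, had 64.0, 70.2 and 63.1 TPM in shRPL3 and 49.0, 51.6 and 53.0 TPM in shScramble (log2 fold change 0.35, SE 0.11, adjusted p = 0.0112), a call lost without shRPL3 2. Smaller rises passed for GINS1 (0.32), POLD3 of polymerase delta (0.28), CDC6 (0.25) and RPA2 of the single-strand binding complex (0.19), with CDC6 lost without shRPL3 2 or without shScramble 1. The 4 GINS subunits, which form 1 complex, thus had GINS1 and GINS3 higher, GINS2 lower and GINS4 at 32.1 ± 0.801 TPM in shRPL3 and 35.3 ± 2.69 TPM in shScramble (adjusted p = 0.642).

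**Figure D3:**
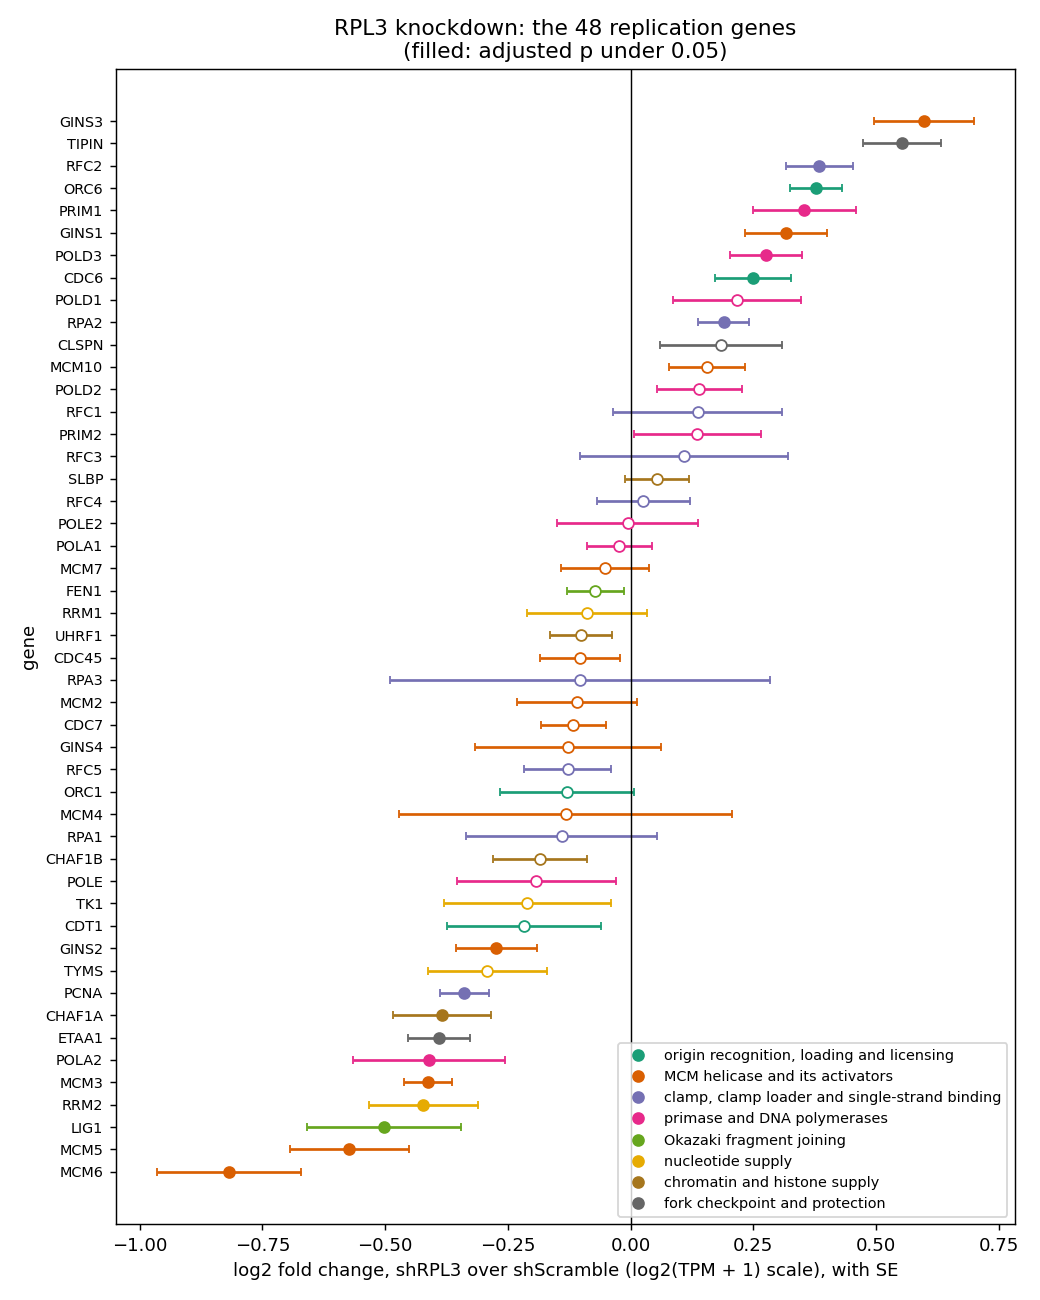
Log2 fold change of each of the 48 genes in shRPL3 over shScramble, on the log2(TPM + 1) scale, with its standard error, coloured by role; filled points passed an adjusted p under 0.05. The 10 genes that fell span from MCM6 (-0.82) to GINS2 (-0.27), and the 9 that rose from RPA2 (0.19) to GINS3 (0.60), and both sets mix roles.

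The factors that switch these genes on and off were read beside them. Among 19 E2F factors, RB family genes and S phase cyclins, 1 was higher and 4 lower upon knockdown (median -0.13, against -0.01 for all genes), where 17.2% of all genes were higher and 18.0% lower. SKP2, a ubiquitin ligase subunit that marks p27 and CDT1 for removal, had 33.5 ± 1.28 TPM in shRPL3 and 61.4 ± 2.27 TPM in shScramble (log2 fold change -0.86, SE 0.07, adjusted p = 4.03e-09). E2F1, an activating E2F, had 38.1 ± 2.40 TPM in shRPL3 and 66.4 ± 1.63 TPM in shScramble (log2 fold change -0.79, SE 0.14, adjusted p = 0.000109). The repressive E2F8 (-0.70) and the pocket protein gene RBL2 (-0.56) fell as well, and E2F5 rose (0.49). The other partner lists were mixed too: 3 higher and 2 lower of 15 origin and firing partners, 5 and 2 of 19 fork partners, 3 and 3 of 10 nucleotide supply partners, 1 and 2 of 8 chromatin copying partners, and 2 and 2 of 9 S phase checkpoint genes. Over all 105 related genes, 17 were higher and 20 lower, a share near that of all genes. Of 25 G2 and mitosis genes, 2 were higher and 5 lower, 5 and 11 with the kind term (48.9% of all genes in either direction) and 2 and 9 with scaling (37.4%).

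The promoters of genes that fell and rose are shown to set their letters beside the direction of change. RefSeq windows (GRCh38.p14) from 250 bases before to 50 bases after 1 RefSeq start per gene were at hand for 42 of the 48. That start can differ from the GENCODE 29 start: the window of GINS3 lies within its GENCODE 29 gene (chr16:58295080-58406144). They were searched on both strands for the E2F letters TTTCCCGC, TTTCGCGC, TTTGCCGC and TTTGGCGC and for CCAAT, the letters bound by NF-Y. Capitals mark the matches. MCM6 (chr2:135876394-135876693, minus strand) and MCM3 (chr6:52284693-52284992, minus strand) fell in shRPL3, MCM2 (chr3:127598161-127598460, plus strand) did not pass, and GINS3 (chr16:58392221-58392520, plus strand) and TIPIN (chr15:66386668-66386967, minus strand) rose.
MCM6: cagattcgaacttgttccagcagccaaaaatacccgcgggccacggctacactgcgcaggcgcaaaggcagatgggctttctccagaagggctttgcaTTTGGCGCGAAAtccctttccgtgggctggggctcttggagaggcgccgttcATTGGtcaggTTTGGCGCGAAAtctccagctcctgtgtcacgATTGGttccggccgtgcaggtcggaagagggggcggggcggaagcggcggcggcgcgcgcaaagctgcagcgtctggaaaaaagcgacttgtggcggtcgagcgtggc
MCM3: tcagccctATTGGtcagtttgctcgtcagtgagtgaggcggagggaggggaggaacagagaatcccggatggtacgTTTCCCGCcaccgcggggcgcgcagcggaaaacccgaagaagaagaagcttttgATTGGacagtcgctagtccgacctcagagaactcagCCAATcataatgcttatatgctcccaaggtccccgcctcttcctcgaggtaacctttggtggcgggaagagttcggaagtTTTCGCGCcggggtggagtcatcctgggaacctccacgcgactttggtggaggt
MCM2: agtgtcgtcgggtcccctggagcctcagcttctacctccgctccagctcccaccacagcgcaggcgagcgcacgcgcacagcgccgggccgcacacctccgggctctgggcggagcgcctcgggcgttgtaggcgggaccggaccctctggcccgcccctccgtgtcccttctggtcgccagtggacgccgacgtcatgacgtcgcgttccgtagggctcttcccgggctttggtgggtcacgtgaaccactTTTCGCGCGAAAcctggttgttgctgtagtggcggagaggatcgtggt
GINS3: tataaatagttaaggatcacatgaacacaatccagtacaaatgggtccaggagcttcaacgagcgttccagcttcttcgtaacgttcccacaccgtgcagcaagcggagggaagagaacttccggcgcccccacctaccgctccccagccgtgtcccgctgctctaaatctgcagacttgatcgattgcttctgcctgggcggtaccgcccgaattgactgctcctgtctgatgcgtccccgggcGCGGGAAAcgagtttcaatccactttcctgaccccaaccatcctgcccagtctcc
TIPIN: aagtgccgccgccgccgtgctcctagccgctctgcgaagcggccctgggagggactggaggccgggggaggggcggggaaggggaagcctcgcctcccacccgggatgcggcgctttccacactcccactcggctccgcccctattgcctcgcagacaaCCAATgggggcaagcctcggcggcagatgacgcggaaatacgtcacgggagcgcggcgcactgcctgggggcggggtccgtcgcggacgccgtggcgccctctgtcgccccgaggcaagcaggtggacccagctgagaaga
MCM6 holds 4 E2F matches in 2 places, since each place reads as a match on either strand and the matches overlap, with 2 CCAAT matches beside them. MCM3 holds 2 E2F and 3 CCAAT matches, MCM2 2 overlapping E2F matches in 1 place, GINS3 1 E2F match and TIPIN 1 CCAAT match alone. The window of MCM7, which did not pass and is not printed, holds 2 E2F and 3 CCAAT matches, as many as MCM3. Over the list, 19 of 42 windows (45.2%) held an E2F match, against 908 of all 27305 windows (3.33%) and 2 of 19 windows of the G2 and mitosis genes (10.5%). CCAAT was found in 59.5% of the 42 windows, 35.7% of all windows and 84.2% of those 19. TTTGAA, the letters of the cell cycle homology region of mitotic genes, was in 2.38% of the 42, 15.4% of all and 63.2% of the 19. By direction in shRPL3, an E2F match stood in 6 of the 9 windows of genes that fell, 3 of the 7 windows of genes that rose and 10 of the 26 windows of genes that did not pass. CCAAT stood in 7 of the 9, 5 of the 7 and 13 of the 26. A match describes letters in the window and is not a measured site.

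Wild-type RPL3L in cells with the hairpin asks whether these genes return once the paralog is present. RPL3L-WT had 1 of the 48 higher and 20 lower than shRPL3 (against 5.77% and 30.2% of all genes), with medians of -0.21 for the 48 and -0.19 for all genes. Of the 9 genes that rose in the knockdown, ORC6, GINS1, GINS3, RFC2, PRIM1 and POLD3 were lower in RPL3L-WT than in shRPL3. ORC6, RFC2, PRIM1 and POLD3 kept that call in every fit that left out 1 library. Of the 10 that fell, GINS2 was higher and MCM6, PCNA and POLA2 were lower still. Of the 3 RPL3L-WT libraries, 2 are of the second kind. With the kind as a term 2 were higher and 16 lower (26.4% of all genes in either direction), and within the first kind, which leaves 1 RPL3L-WT library, 0 were higher and 6 lower (14.2%). The level of all genes shifted too: median-ratio scaling of the libraries moves the all-gene median by over 0.1 on the log2 scale where RPL3L-WT is compared with shRPL3 (-0.19 unscaled), shScramble (-0.18), D308N (0.13), D308V (0.11), R343W (0.13) and R161W (0.10), and where P291L is compared with shRPL3 (-0.10). With scaling, 5 of the 48 were higher and 10 lower (24.2% of all genes). Where the kind term, the first kind alone, scaling or leaving out 1 library ended the call of a gene or moved its value by over 1.5 times, this is said for the genes whose values are given per library. In RPL3L-WT, 9 of the 48 were called (0 higher, 9 lower) without RPL3L-WT 1 and 11 (0 higher, 11 lower) without RPL3L-WT 2.

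POLA2, the regulatory subunit of the polymerase alpha and primase complex, had 17.9, 19.0 and 26.6 TPM in RPL3L-WT and 35.6, 41.6 and 38.1 TPM in shRPL3. The groups did not overlap, and among genes without overlap POLA2 fell furthest (log2 fold change -0.85, SE 0.15, adjusted p = 0.000344). POLA2 did not pass within the first kind (-0.51, adjusted p = 0.0678). RFC3 had 29.04, 26.7 and 47.5 TPM in RPL3L-WT and 56.2, 53.0 and 55.0 TPM in shRPL3 (log2 fold change -0.70, SE 0.21, adjusted p = 0.0144). RPL3L-WT 1 and 2 carried most of that decrease. RFC3 was at a log2 fold change of -0.21 with the kind term, did not pass within the first kind (-0.20, adjusted p = 0.0647) and lost its call without RPL3L-WT 1 or 2. GINS4 had 15.7, 17.4 and 27.1 TPM in RPL3L-WT and 31.2, 32.4 and 32.8 TPM in shRPL3 (log2 fold change -0.69, SE 0.19, adjusted p = 0.00805), again lowest in RPL3L-WT 1 and 2. GINS4 was at a log2 fold change of -0.29 with the kind term, did not pass within the first kind (-0.24, adjusted p = 0.286) and lost its call without RPL3L-WT 1. GINS2 was the gene that rose, with 47.0, 43.0 and 39.4 TPM in RPL3L-WT and 34.6, 37.9 and 36.3 TPM in shRPL3 (log2 fold change 0.24, SE 0.08, adjusted p = 0.0262). GINS2 was at a log2 fold change of 0.46 with scaling, did not pass with the kind term (0.13, adjusted p = 0.186) or within the first kind (0.12, adjusted p = 0.443) and lost its call without RPL3L-WT 1 or 2 or without shRPL3 1 or 3. MCM6 is given as well because it led the knockdown, with 26.2, 25.3 and 38.7 TPM in RPL3L-WT and 47.0, 46.9 and 42.9 TPM in shRPL3 (log2 fold change -0.61, SE 0.15, adjusted p = 0.00331). All RPL3L-WT libraries were below those of shRPL3. MCM6 was at a log2 fold change of -0.29 with the kind term and -0.39 with scaling and did not pass within the first kind (-0.23, adjusted p = 0.0782). RPA3, the smallest subunit of the single-strand binding complex, had overlapping groups, with 52.8, 53.1 and 144 TPM in RPL3L-WT and 163, 164 and 142 TPM in shRPL3 (log2 fold change -1.06, SE 0.39, adjusted p = 0.0367). RPA3 did not pass with the kind term (-0.18, adjusted p = 0.125), within the first kind (-0.11, adjusted p = 0.543) or with scaling (-0.84, adjusted p = 0.0736) and lost its call without RPL3L-WT 1 or 2 or without shRPL3 1, 2 or 3. PCNA and TYMS were called lower as well (log2 fold changes -0.16 and -0.32). PCNA did not pass within the first kind (-0.11, adjusted p = 0.197) or with scaling (0.07, adjusted p = 0.439) and lost its call without RPL3L-WT 1 or 2 or without shRPL3 1 or 2. TYMS did not pass with the kind term (-0.05, adjusted p = 0.467), within the first kind (0.00, adjusted p = 0.985) or with scaling (-0.09, adjusted p = 0.409) and lost its call without RPL3L-WT 1 or 2 or without shRPL3 1, 2 or 3.

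Set against shScramble, RPL3L-WT had 4 of the 48 higher and 27 lower (against 12.1% and 34.6% of all genes), 7 and 24 with the kind term (44.7% of all genes in either direction), and 11 and 17 with scaling (43.5%). This comparison shares its shScramble libraries with that of shRPL3 and its RPL3L-WT libraries with all of the variants. MCM6 had 26.2, 25.3 and 38.7 TPM in RPL3L-WT and 75.9, 81.1 and 86.7 TPM in shScramble (log2 fold change -1.43, SE 0.15, adjusted p = 7.17e-08). POLA2 had 17.9, 19.0 and 26.6 TPM in RPL3L-WT and 58.8, 49.6 and 46.4 TPM in shScramble (log2 fold change -1.26, SE 0.15, adjusted p = 8.19e-07). RPA3 had 52.8, 53.1 and 144 TPM in RPL3L-WT and 156, 178 and 169.5 TPM in shScramble (log2 fold change -1.17, SE 0.39, adjusted p = 0.0172), with RPL3L-WT 3 far above the other 2 libraries of its group. RPA3 was at a log2 fold change of -0.29 with the kind term, did not pass within the first kind (-0.22, adjusted p = 0.139) and lost its call without RPL3L-WT 1 or 2. Among the genes that were higher, TIPIN had 35.0, 41.1 and 39.2 TPM in RPL3L-WT and 26.8, 29.5 and 30.9 TPM in shScramble (log2 fold change 0.39, SE 0.08, adjusted p = 0.000365). TIPIN was at a log2 fold change of 0.60 with scaling. GINS3 had 18.6, 21.1 and 26.2 TPM in RPL3L-WT and 17.1, 18.4 and 17.3 TPM in shScramble (log2 fold change 0.29, SE 0.10, adjusted p = 0.0227), with no overlap. GINS3 was at a log2 fold change of 0.49 with the kind term, 0.55 within the first kind and 0.50 with scaling and lost its call without RPL3L-WT 3 or without shScramble 1 or 3. MCM10, which helps to activate the helicase, had 43.3, 39.4 and 38.0 TPM in RPL3L-WT and 33.0, 36.4 and 35.5 TPM in shScramble (log2 fold change 0.20, SE 0.08, adjusted p = 0.0396). MCM10 was at a log2 fold change of 0.41 with scaling, did not pass within the first kind (0.12, adjusted p = 0.364) and lost its call without RPL3L-WT 1 or 2 or without shScramble 1 or 3.

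Each variant was compared with RPL3L-WT, and these comparisons share the same 3 RPL3L-WT libraries, so a high or low RPL3L-WT library moves them all. G27D and R161W hold 1 library of the second kind each and T189M 2, while P291L, D308N, D308V and R343W hold none. Within the first kind, 1 RPL3L-WT library is left in each of these comparisons, so a call lost there says little.

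In R161W, 10 of the 48 were higher and 2 lower than in RPL3L-WT (against 12.6% and 4.07% of all genes), 13 and 6 with the kind term (25.0% of all genes in either direction), and 7 and 5 with scaling (17.2%). In R161W, 6 of the 48 were called (5 higher, 1 lower) without RPL3L-WT 1, 6 (4 higher, 2 lower) without RPL3L-WT 2, 5 (3 higher, 2 lower) without R161W 2 and 7 (5 higher, 2 lower) without R161W 3. The genes that were higher were MCM3, MCM6, GINS3, PCNA, RFC5, POLA2, POLE, FEN1, LIG1 and ETAA1. Of these, MCM3, GINS3, POLE and LIG1 each lost the call in 4 of the 6 fits that left out 1 library, and FEN1 in 3. MCM3 (adjusted p = 0.834), PCNA (0.0951) and FEN1 (0.274) did not pass with scaling, and GINS3 and POLE did not within the first kind. POLA2 had 28.4, 40.7 and 30.6 TPM in R161W and 17.9, 19.0 and 26.6 TPM in RPL3L-WT, with no overlap (log2 fold change 0.63, SE 0.15, adjusted p = 0.00698). POLA2 did not pass within the first kind (0.39, adjusted p = 0.193) and lost its call without R161W 2 or without RPL3L-WT 1. ETAA1 had 10.5, 10.4 and 9.46 TPM in R161W and 7.11, 8.37 and 8.03 TPM in RPL3L-WT (log2 fold change 0.33, SE 0.06, adjusted p = 0.000977), and every R161W library was above every RPL3L-WT library. ETAA1 was at a log2 fold change of 0.22 with scaling. RFC5, a clamp loader subunit, had 57.3, 68.0 and 72.7 TPM in R161W and 51.8, 49.9 and 57.0 TPM in RPL3L-WT (log2 fold change 0.31, SE 0.09, adjusted p = 0.0182). RFC5 was at a log2 fold change of 0.19 with scaling and lost its call without R161W 2 or 3 or without RPL3L-WT 1 or 2. MCM6 is shown for its place in the knockdown, with 37.6, 53.5 and 53.7 TPM in R161W and 26.2, 25.3 and 38.7 TPM in RPL3L-WT (log2 fold change 0.67, SE 0.15, adjusted p = 0.00296). The lowest R161W library, replicate 1, is of the second kind and lies below RPL3L-WT 3, so the groups overlap. MCM10 had 31.2, 32.0 and 34.3 TPM in R161W and 43.3, 39.4 and 38.0 TPM in RPL3L-WT (log2 fold change -0.30, SE 0.08, adjusted p = 0.00981), and RFC2 had 54.8, 57.9 and 56.9 TPM in R161W and 60.9, 66.5 and 75.1 TPM in RPL3L-WT (log2 fold change -0.25, SE 0.07, adjusted p = 0.0146). Both fell, with no overlap. MCM10 did not pass within the first kind (-0.19, adjusted p = 0.223) and lost its call without RPL3L-WT 1. RFC2 was at a log2 fold change of -0.38 within the first kind and lost its call without RPL3L-WT 3. RPL3 itself was higher in R161W than in RPL3L-WT (log2 fold change 1.47), and its part in these values was not tested.

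T189M had 1 of the 48 genes higher and 0 lower than RPL3L-WT (against 1.39% and 0.409% of all genes). ETAA1 (chr2:67397319-67412089, plus strand) had 17.8, 18.2 and 18.8 TPM in T189M and 7.11, 8.37 and 8.03 TPM in RPL3L-WT, with no overlap (log2 fold change 1.13, SE 0.06, adjusted p = 4.30e-11). In no library of another group did ETAA1 reach these levels. The next group was shScramble, with 11.9, 11.7 and 11.9 TPM, and the lowest D308N, with 6.39, 6.48 and 6.50 TPM. In T189M, 2 of the 48 were called (2 higher, 0 lower) without RPL3L-WT 3 and 2 (2 higher, 0 lower) without T189M 3. Of 105 related genes, 1 passed in T189M: ATR, the checkpoint kinase that ETAA1 activates, with 12.3 ± 1.54 TPM in T189M and 8.66 ± 0.848 TPM in RPL3L-WT (mean ± SD, n = 3 each; log2 fold change 0.46, SE 0.09, adjusted p = 0.0121). Within the first kind, which leaves 1 library of each group, the log2 fold change of ATR was 0.44. With the kind term, 5 of the 48 were higher and 3 lower (10.6% of all genes in either direction), and with scaling 2 and 1 (2.62%). At an unadjusted p under 0.05 in limma, 4 were higher and 3 lower (14.4% of all genes). RPL3 was at 942 ± 263 TPM in T189M and 519 ± 134 TPM in RPL3L-WT.

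D308N and D308V alter the same residue of RPL3L. D308N had 10 of the 48 higher and 4 lower than RPL3L-WT (against 23.7% and 9.48% of all genes), 10 and 9 with the kind term (30.3% of all genes in either direction) and 7 and 8 with scaling (31.8%). D308V had 13 higher and 3 lower (against 21.6% and 9.03% of all genes), 11 and 5 with the kind term (28.9% of all genes in either direction) and 10 and 6 with scaling (30.2%). In D308N, 24 of the 48 were called (19 higher, 5 lower) without RPL3L-WT 3. In D308V, 10 of the 48 were called (8 higher, 2 lower) without RPL3L-WT 2 and 27 (22 higher, 5 lower) without RPL3L-WT 3. CDT1, which loads the MCM ring and is destroyed once S phase begins, led both. It had 51.5, 62.8 and 58.4 TPM in D308N, 53.1, 43.0 and 48.8 TPM in D308V and 29.3, 24.0 and 30.8 TPM in RPL3L-WT. Every library of both variants was above every RPL3L-WT library. The difference of the means on the log2 scale was 1.01 (SE 0.16, adjusted p = 4.10e-05) in D308N and 0.77 (SE 0.16, adjusted p = 0.000806) in D308V. In D308V the value was 0.50 with the kind term. The shScramble cells had 56.4, 43.5 and 52.7 TPM of CDT1, a mean of 50.9 ± 6.63 TPM (SD, n = 3), above that of D308V.

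Other genes of D308N and D308V moved by less. PRIM1 had 73.6, 68.3 and 73.6 TPM in D308N and 44.2, 43.4 and 57.4 TPM in RPL3L-WT, with no overlap (log2 fold change 0.57, SE 0.11, adjusted p = 0.000298). PRIM1 was at a log2 fold change of 0.37 with the kind term and 0.32 within the first kind. GINS3 had 30.7, 28.0 and 31.5 TPM in D308N and 18.6, 21.1 and 26.2 TPM in RPL3L-WT (log2 fold change 0.45, SE 0.10, adjusted p = 0.00185). GINS3 was at a log2 fold change of 0.25 with the kind term and did not pass within the first kind (0.19, adjusted p = 0.0713). GINS4 had 34.6, 27.8 and 32.6 TPM in D308V and 15.7, 17.4 and 27.1 TPM in RPL3L-WT (log2 fold change 0.66, SE 0.19, adjusted p = 0.0107). GINS4 did not pass with the kind term (0.27, adjusted p = 0.0510) or within the first kind (0.21, adjusted p = 0.322) and lost its call without RPL3L-WT 1 or 2. POLA2 had 29.5, 31.8 and 28.0 TPM in D308V and 17.9, 19.0 and 26.6 TPM in RPL3L-WT (log2 fold change 0.49, SE 0.15, adjusted p = 0.0194). POLA2 did not pass with the kind term (0.26, adjusted p = 0.154) or within the first kind (0.15, adjusted p = 0.611) and lost its call without D308V 2 or without RPL3L-WT 1 or 2. Among the genes that were lower, RRM2 had 225, 229 and 225 TPM in D308N, 275, 270.2 and 293 TPM in D308V and 392, 353 and 301 TPM in RPL3L-WT. Its log2 fold change was -0.62 (SE 0.11, adjusted p = 0.000227) in D308N and -0.31 (SE 0.11, adjusted p = 0.0363) in D308V. In D308N it was -0.39 with the kind term. In D308V, RRM2 did not pass with the kind term (-0.09, adjusted p = 0.291) or within the first kind (-0.11, adjusted p = 0.324) and lost its call without D308V 1, 2 or 3 or without RPL3L-WT 1 or 2. GINS2 had 31.4, 33.0 and 31.4 TPM in D308N, 32.6, 29.9 and 32.4 TPM in D308V and 47.0, 43.0 and 39.4 TPM in RPL3L-WT, below in every library of both variants. Its log2 fold change was -0.42 (adjusted p = 0.000532) in D308N and -0.43 (adjusted p = 0.000382) in D308V. ETAA1 was lower in D308N, at the levels above (log2 fold change -0.24, SE 0.06, adjusted p = 0.00580). ETAA1 was at a log2 fold change of -0.38 with scaling. MCM3 had 127, 123 and 129 TPM in D308N, 123, 115 and 119 TPM in D308V and 149, 135 and 135 TPM in RPL3L-WT. It was lower in D308V (log2 fold change -0.23, SE 0.05, adjusted p = 0.00136; -0.36 with scaling) and in D308N (log2 fold change -0.14, SE 0.05, adjusted p = 0.0321). In D308N, MCM3 was at a log2 fold change of -0.29 with scaling, did not pass with the kind term (-0.09, adjusted p = 0.113) or within the first kind (-0.09, adjusted p = 0.197) and lost its call without D308N 1, 2 or 3 or without RPL3L-WT 1.

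Directly compared, D308N and D308V differed in 0 of the 48 genes in limma, where 0.776% of all genes were higher and 0.866% lower. At an unadjusted p under 0.05, 1 was higher and 2 lower (12.1% of all genes). With scaling 0 were higher and 0 lower (2.92%). With the kind as a term (8.26%) 1 passed, RRM2 (log2 fold change -0.30, adjusted p = 0.000781 with the term and 0.196 without).

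Against shRPL3, whose libraries are all of the first kind, D308N had 0 of the 48 higher and 11 lower (against 5.73% and 12.4% of all genes), 5 and 18 with the kind term (33.4% of all genes in either direction) and 6 and 8 with scaling (19.2%). D308V had 0 higher and 5 lower (against 5.19% and 11.1% of all genes), 3 and 17 with the kind term (32.1% of all genes in either direction) and 3 and 2 with scaling (16.2%). In D308N, 7 of the 48 were called (0 higher, 7 lower) without shRPL3 2. In D308V, 2 of the 48 were called (0 higher, 2 lower) without shRPL3 1, 3 (0 higher, 3 lower) without shRPL3 3, 2 (0 higher, 2 lower) without D308V 1, 2 (0 higher, 2 lower) without D308V 2 and 3 (0 higher, 3 lower) without D308V 3. At an unadjusted p under 0.05 in limma, 2 were higher and 12 lower in D308N (29.9% of all genes), and 2 and 10 in D308V (28.9%). POLA2 had 30.8, 20.7 and 29.7 TPM in D308N and 35.6, 41.6 and 38.1 TPM in shRPL3 (log2 fold change -0.51, SE 0.15, adjusted p = 0.0233). POLA2 lost its call without D308N 2 or without shRPL3 2 or 3. MCM6 had 35.2, 31.9 and 31.1 TPM in D308N, 32.1, 35.2 and 33.7 TPM in D308V and 47.0, 46.9 and 42.9 TPM in shRPL3, with both variants below shRPL3 in every library. Its log2 fold change was -0.47 (adjusted p = 0.0284) in D308N and -0.43 (adjusted p = 0.0491) in D308V. The call was lost without D308N 2 or 3 or without shRPL3 1 or 2 in D308N, and without any 1 of the 6 libraries in D308V. These fits use 1 spread for all 10 groups, some of which mix the 2 kinds of library. Within the first kind, 7 of the 48 were higher and 18 lower in D308N (against 1720 and 3383 of all 14426 genes). In D308V 3 were higher and 18 lower (against 1471 and 3437). The median of the 48 was the same there as with all 30 libraries (-0.11 in D308N, -0.10 in D308V). RRM2 had 225, 229 and 225 TPM in D308N and 329.9, 304 and 299 TPM in shRPL3 (log2 fold change -0.46, SE 0.11, adjusted p = 0.00479). RRM2 did not pass with scaling (-0.39, adjusted p = 0.0682). ORC6 had 60.1, 65.8 and 64.2 TPM in D308V and 75.3, 78.1 and 76.0 TPM in shRPL3 (log2 fold change -0.27, SE 0.05, adjusted p = 0.00102), with no overlap. ETAA1 had 7.27, 7.27 and 7.66 TPM in D308V and 8.87, 8.75 and 8.80 TPM in shRPL3 (log2 fold change -0.22, SE 0.06, adjusted p = 0.0172). ETAA1 did not pass with scaling (-0.15, adjusted p = 0.160) and lost its call without D308V 1 or 2 or without shRPL3 1. CDT1, which led the comparison with RPL3L-WT, did not pass against shRPL3: it had 57.5 ± 5.71 TPM in D308N, 48.3 ± 5.09 TPM in D308V and 43.5 ± 3.82 TPM in shRPL3 (mean ± SD, n = 3 each), with adjusted p = 0.0857 in D308N and 0.601 in D308V. Every D308N library was still above every shRPL3 library. Within the first kind and with scaling, 2 of the 4 genes that license origins, CDC6 and CDT1, were called higher in D308N. With the kind term 1 of the 4 was.

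R343W differed from RPL3L-WT in 14 genes that were higher and 3 that were lower (against 24.5% and 9.19% of all genes), 15 and 9 with the kind term (31.4% of all genes in either direction) and 7 and 8 with scaling (31.8%). In R343W, 10 of the 48 were called (8 higher, 2 lower) without RPL3L-WT 1. The GINS subunits moved apart. GINS2 had 24.2, 27.02 and 29.2 TPM in R343W and 47.0, 43.0 and 39.4 TPM in RPL3L-WT, with no overlap (log2 fold change -0.67, SE 0.08, adjusted p = 2.16e-06). GINS4 had 39.3, 34.6 and 30.4 TPM in R343W and 15.7, 17.4 and 27.1 TPM in RPL3L-WT (log2 fold change 0.79, SE 0.19, adjusted p = 0.00270). GINS4 was at a log2 fold change of 0.40 with the kind term and did not pass within the first kind (0.34, adjusted p = 0.0924). POLA2 had 36.9, 30.2 and 30.9 TPM in R343W and 17.9, 19.0 and 26.6 TPM in RPL3L-WT (log2 fold change 0.62, SE 0.15, adjusted p = 0.00394), also without overlap. POLA2 was at a log2 fold change of 0.38 with the kind term and did not pass within the first kind (0.28, adjusted p = 0.301). RFC3 had 49.4, 51.0 and 47.6 TPM in R343W and 29.04, 26.7 and 47.5 TPM in RPL3L-WT (log2 fold change 0.55, SE 0.21, adjusted p = 0.0477), where RPL3L-WT 3 was close to R343W. RFC3 did not pass with the kind term (0.06, adjusted p = 0.444), within the first kind (0.05, adjusted p = 0.647) or with scaling (0.40, adjusted p = 0.0778) and lost its call without R343W 1, 2 or 3 or without RPL3L-WT 1 or 2. ORC6 was lower, with 53.3, 52.8 and 50.9 TPM in R343W and 59.3, 56.8 and 62.3 TPM in RPL3L-WT (log2 fold change -0.18, SE 0.05, adjusted p = 0.0115). ORC6 was at a log2 fold change of -0.34 with scaling and lost its call without R343W 3.

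Against shRPL3, R343W had 1 of the 48 higher and 6 lower (against 7.22% and 12.4% of all genes), 6 and 18 with the kind term (35.5% of all genes in either direction) and 4 and 7 with scaling (20.5%). Within the first kind, 5 were higher and 18 lower (against 1944 and 3444 of all 14426 genes). Neither group holds a library of the second kind, and the median of the 48 was -0.06 in each of these fits but 0.00 with scaling. In R343W, 3 of the 48 were called (1 higher, 2 lower) without shRPL3 2 and 3 (1 higher, 2 lower) without R343W 3. ORC6 had 53.3, 52.8 and 50.9 TPM in R343W, all below the 75.3, 78.1 and 76.0 TPM in shRPL3 (log2 fold change -0.54, SE 0.05, adjusted p = 9.06e-08). POLE2 had 22.0, 16.6 and 15.6 TPM in R343W and 22.0, 23.8 and 28.1 TPM in shRPL3 (log2 fold change -0.43, SE 0.14, adjusted p = 0.0351). POLE2 lost its call without R343W 2 or 3 or without shRPL3 2 or 3. GINS2 had 24.2, 27.02 and 29.2 TPM in R343W, again all below the 34.6, 37.9 and 36.3 TPM in shRPL3 (log2 fold change -0.43, SE 0.08, adjusted p = 0.000578). RPA2 was higher, with 115, 113 and 106 TPM in R343W and 93.4, 94.8 and 94.1 TPM in shRPL3 (log2 fold change 0.24, SE 0.05, adjusted p = 0.00171).

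P291L and G27D differed from RPL3L-WT in few of these genes. P291L had 0 higher and 4 lower (against 1.66% and 1.09% of all genes), 0 and 4 with the kind term (1.98% in either direction), and 0 and 7 with scaling (4.78%). In P291L, 0 of the 48 were called without RPL3L-WT 1, 1 (0 higher, 1 lower) without RPL3L-WT 2, 21 (13 higher, 8 lower) without RPL3L-WT 3, 0 without P291L 1, 1 (0 higher, 1 lower) without P291L 2 and 0 without P291L 3. RRM2 had 262, 252 and 246 TPM in P291L and 392, 353 and 301 TPM in RPL3L-WT (log2 fold change -0.45, SE 0.11, adjusted p = 0.0286). RRM2 was at a log2 fold change of -0.23 with the kind term, did not pass within the first kind (-0.25, adjusted p = 0.131) and lost its call without P291L 1, 2 or 3 or without RPL3L-WT 1 or 2. CHAF1A, the large subunit of a chaperone that places histones on new DNA, had 24.4, 27.3 and 24.5 TPM in P291L and 34.6, 37.9 and 31.0 TPM in RPL3L-WT (log2 fold change -0.42, SE 0.10, adjusted p = 0.0233). CHAF1A did not pass with the kind term (-0.27, adjusted p = 0.0927) or within the first kind (-0.28, adjusted p = 0.289) and lost its call without P291L 1 or 3 or without RPL3L-WT 1 or 2. GINS2 had 34.5, 32.6 and 34.6 TPM in P291L and 47.0, 43.0 and 39.4 TPM in RPL3L-WT (log2 fold change -0.34, SE 0.08, adjusted p = 0.0292). GINS2 did not pass with the kind term (-0.23, adjusted p = 0.112) or within the first kind (-0.21, adjusted p = 0.353) and lost its call without P291L 1, 2 or 3 or without RPL3L-WT 1 or 2. RPA2 was the other gene called (-0.21). RPA2 lost its call without P291L 1, 2 or 3 or without RPL3L-WT 1. At an unadjusted p under 0.05 in limma, 6 were higher and 13 lower (28.1% of all genes), and 0 of the 48 passed in a fit of the 6 libraries of these groups. G27D had 1 gene higher, POLD3, and 0 lower (against 1.55% and 1.77% of all genes), 2 and 3 with the kind term (10.3% in either direction), and 0 and 0 with scaling (5.40%). At an unadjusted p under 0.05 in limma, 5 were higher and 2 lower (17.7% of all genes). In G27D, 0 of the 48 were called without RPL3L-WT 1, 0 without RPL3L-WT 2, 6 (4 higher, 2 lower) without RPL3L-WT 3, 0 without G27D 2 and 2 (0 higher, 2 lower) without G27D 3. POLD3 had 22.6, 26.2 and 26.9 TPM in G27D and 20.4, 19.0 and 23.2 TPM in RPL3L-WT (log2 fold change 0.26, SE 0.07, adjusted p = 0.0496). POLD3 did not pass within the first kind (0.07, adjusted p = 0.782) or with scaling (0.21, adjusted p = 0.131) and lost its call without G27D 2 or 3 or without RPL3L-WT 1 or 2.

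Against shRPL3, P291L had 0 of the 48 higher and 16 lower (against 4.67% and 15.0% of all genes), 2 and 30 with the kind term (35.8% of all genes in either direction) and 1 and 9 with scaling (16.8%). Within the first kind, 2 were higher and 32 lower (against 1319 and 4162 of all 14426 genes). P291L and shRPL3 hold no library of the second kind, and the median of the 48 was -0.25 in each of these fits but -0.13 with scaling. At an unadjusted p under 0.05 in limma, 0 were higher and 25 lower (32.1% of all genes). POLD3, a subunit of polymerase delta, had 20.0, 19.3 and 20.5 TPM in P291L and 30.9, 30.4 and 29.6 TPM in shRPL3, with no overlap (log2 fold change -0.58, SE 0.07, adjusted p = 5.62e-06). POLA2 had 26.5, 26.3 and 27.1 TPM in P291L and 35.6, 41.6 and 38.1 TPM in shRPL3 (log2 fold change -0.51, SE 0.15, adjusted p = 0.0219). POLA2 lost its call without P291L 1, 2 or 3 or without shRPL3 2 or 3. GINS1 had 19.1, 23.6 and 24.6 TPM in P291L and 29.9, 29.7 and 30.5 TPM in shRPL3, with no overlap (log2 fold change -0.41, SE 0.08, adjusted p = 0.00112).

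**Figure D4:**
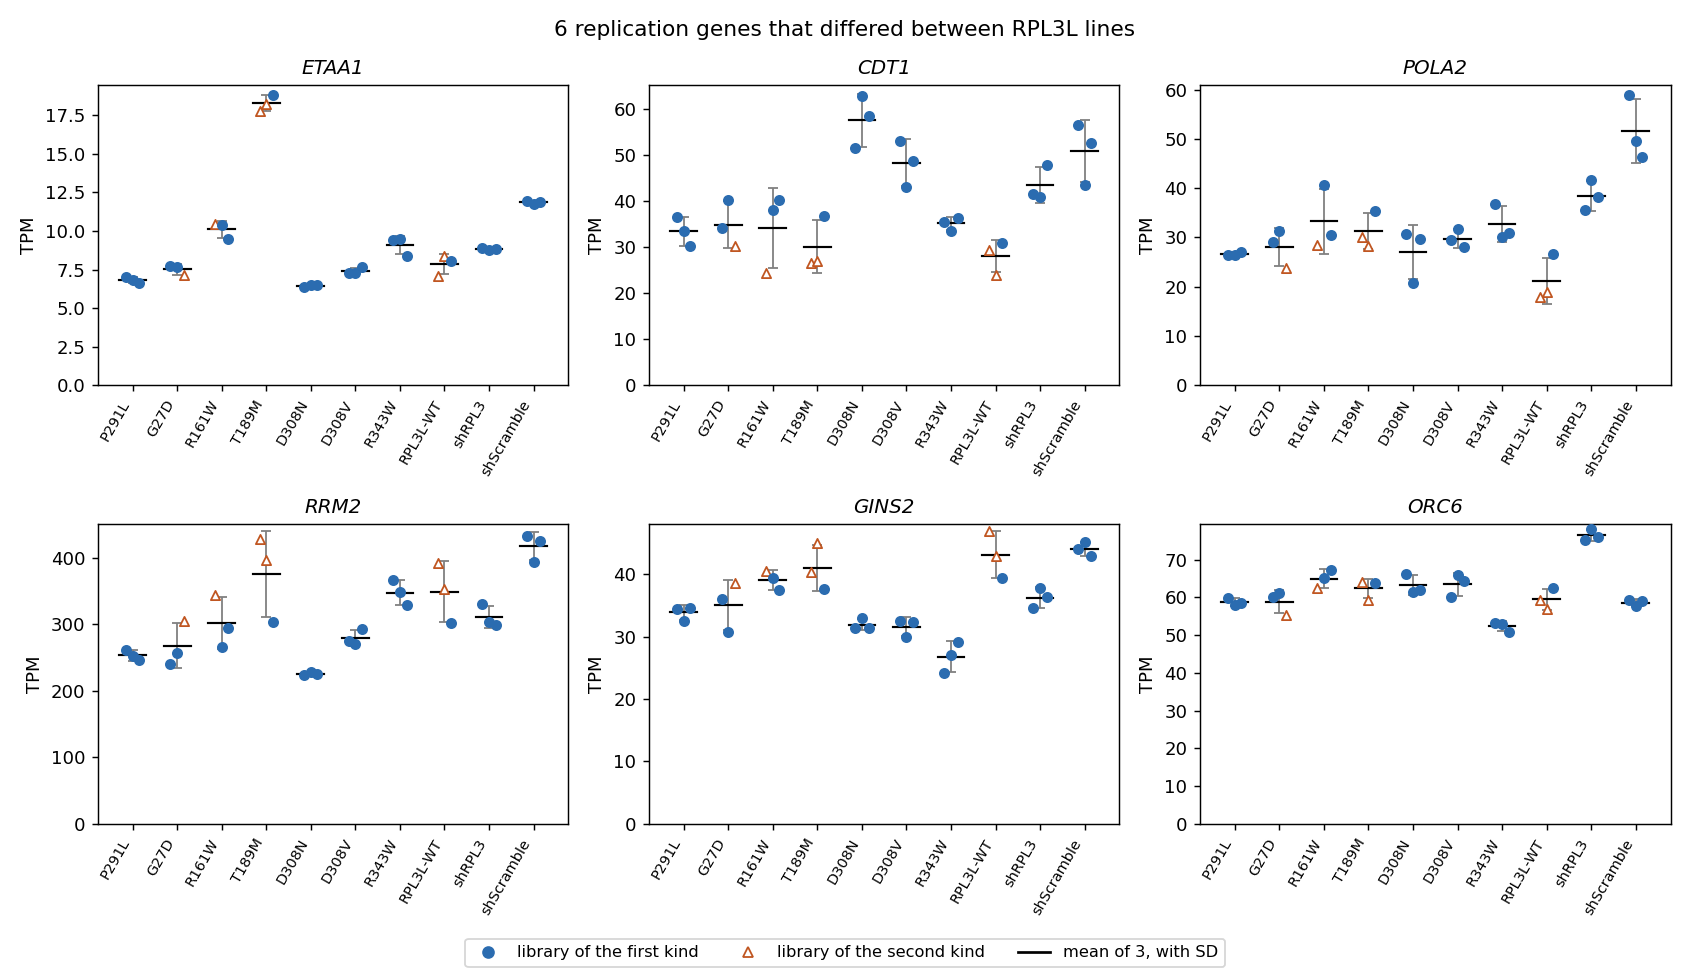
TPM of 6 replication genes in the 10 groups, RPL3L variants to the left, then RPL3L-WT, shRPL3 and shScramble; each point is a library, bars are the mean of 3 and its SD, and open triangles are libraries of the second kind. ETAA1 reads from 17.8 to 18.8 TPM in the 3 T189M libraries, CDT1 is higher in D308N and D308V than in RPL3L-WT, with the D308V mean below that of shScramble, and GINS2 and ORC6 are lowest in R343W.

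Genes of the later cell cycle were read beside the replication genes in D308N and D308V. The 25 G2 and mitosis genes summed to 3001 ± 72.5 TPM in D308N, 2900.0 ± 20.4 TPM in D308V and 3878 ± 28.0 TPM in shRPL3, and the 48 replication genes to 4500.0 ± 37.5 TPM in D308N, 4544 ± 80.3 TPM in D308V and 4817 ± 5.46 TPM in shRPL3. In P291L, G27D and R343W the mitosis sum averaged 3378, 3449 and 3452 TPM. In RPL3L-WT, T189M and R161W it averaged 3490, 3654 and 3884 TPM. A mean below that of shRPL3 was thus not particular to D308N and D308V. Of the 25, 15 were lower in D308N than in shRPL3 (median -0.44, against -0.11 for the 48 replication genes and -0.05 for all genes, of which 12.4% were lower) and 16 in D308V (median -0.44, against -0.10 for the 48 and -0.07 for all genes, of which 11.1% were lower). With the kind term 24 of the 25 were lower in D308N and 24 in D308V (33.4% and 32.1% of all genes called in either direction), and with scaling 14 in D308N and 14 in D308V (19.2% and 16.2%). KIF20A, a kinesin of cytokinesis, had 53.7 ± 2.28 TPM in D308N, 55.1 ± 1.40 TPM in D308V and 105 ± 3.99 TPM in shRPL3 (log2 fold changes -0.96 and -0.92). In the knockdown comparison the mitosis sum was 3878 ± 28.0 TPM in shRPL3 and 3914 ± 52.3 TPM in shScramble, and the replication sum 4817 ± 5.46 TPM in shRPL3 and 5299 ± 47.4 TPM in shScramble. These lists are described by their sums and counts, and the difference between them was not tested.

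**Figure D5:**
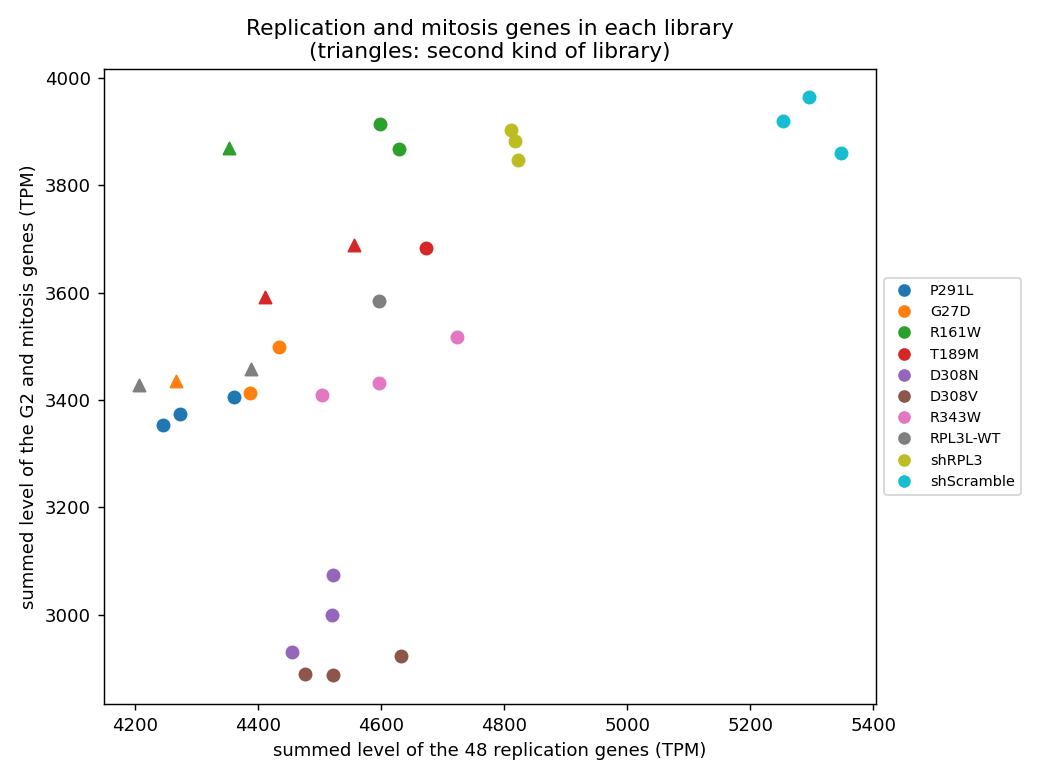
Summed TPM of the 48 replication genes (horizontal) and of 25 G2 and mitosis genes (vertical) in each library, coloured by group; triangles are libraries of the second kind, and neither axis starts at 0. The shScramble libraries lie furthest right, and the D308N and D308V libraries lie lowest, between 2887 and 3074 TPM on the vertical axis.

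The kind of library differed in many of these genes, with the widest differences in RPA3 and MCM4. In the fit with the kind as a term, 10 of the 48 were higher and 28 lower in the second kind, and 2094 (14.5%) were higher and 6250 (43.3%) lower among all 14426 genes. MCM4 was 1.17 higher on the log2 scale, with 539.9 and 508 TPM in RPL3L-WT 1 and 2 and 249 TPM in RPL3L-WT 3. RPA3 was lower (-1.32), with 52.8 and 53.1 TPM in RPL3L-WT 1 and 2 and 144 TPM in RPL3L-WT 3. RFC3 (-0.74), RPA1 (-0.67) and GINS4 (-0.59) were lower as well. What distinguishes the kinds was not tested. PCNA, TIPIN, POLD3, RPA2 and ETAA1 did not pass between the kinds.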

How the data were processed

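RNA-seq values were deposited by the authors as TPM per gene, a table of 60612 entries of which 6 are plasmid features. Per the submitters' processing notes, bcl2fastq 2.19, kallisto, Bowtie and bedtools were used, with the build and annotation not given in the sources used here. Per the labels' protocols, libraries came from polyadenylated RNA with TruSeq chemistry. Another 12 libraries, of nuclear RNA, and the ribosomal RNA counts were not used here. TPM keep no depth, so precision was judged from the 3 replicates of a group.

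Genes with a mean of at least 1 TPM over the 30 libraries (14426) were tested on log2(TPM + 1) with limma 3.58.1 (R 4.3.3; trend and robust empirical Bayes, two-sided, Benjamini-Hochberg over all genes, threshold 0.05), in 1 fit of all groups, and fold changes are on that scale. It was tested on simulated data. Values per library are given for the members with no overlap between groups and the largest changes (5 each way in the knockdown, 3 each way elsewhere), for the ends of each role and for the MCM ring; others named were chosen after their values were seen. The members and lists were chosen with earlier results of these data known. Alternatives were the library kind as a term, the first kind alone, median-ratio scaling, a pseudocount of 0.1, no filter, a minimum of 5 TPM, a replicate block, only the groups compared and each library left out. Correlations of deviations between samples of the same replicate number exceeded 0.1 for all 3 numbers in T189M against RPL3L-WT alone (0.191, 0.194 and 0.505). In both of these groups replicates 1 and 2 are of the second kind and replicate 3 of the first. A pairing of samples therefore cannot be told apart from the library kind. Gene positions are those of GENCODE 29 (GRCh38). Tables and figures were made with Python 3.11.15, numpy 2.4.6, pandas 2.3.3 and matplotlib 3.10.9.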

Additional observations from a re-analysis of the deposited data

How the results depend on the processing

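Of 175 pairs of a gene and a comparison that were called, 147 kept direction and threshold with the kind term, 28 fell below the threshold and 0 turned sign, and 98 were called in every fit that left out 1 library. Signs turned in 3 cases: PCNA (0.066, scaling) and TYMS (0.0036, first kind) in RPL3L-WT against shRPL3, and UHRF1 (0.020, scaling) in RPL3L-WT against shScramble. The cause of these changes was not tested. Depth is unknown, and 3 libraries a group limit what can be called.

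Counts of the 48 that moved by over 1.5 times were as follows. With the kind term: G27D 5, R161W 19 and T189M 8 against RPL3L-WT, P291L 32, D308N 23, D308V 20 and R343W 24 against shRPL3, and D308N against D308V 1. Within the first kind: RPL3L-WT against shRPL3 6, P291L against RPL3L-WT 2, P291L 34, D308N 25, D308V 21 and R343W 23 against shRPL3, and D308N against D308V 2. With scaling: P291L 7, G27D 0 and T189M 3 against RPL3L-WT, and P291L 10 and R343W 11 against shRPL3. Without a filter: P291L 2 and G27D 0 against RPL3L-WT and D308V 3 against shRPL3, and with a minimum of 5 TPM G27D 3. With the groups compared alone: RPL3L-WT 5 against shRPL3 and 18 against shScramble, R343W 6, D308V 6, D308N 6, R161W 0, G27D 0 and P291L 0 against RPL3L-WT, P291L 32, D308N 19, D308V 14 and R343W 17 against shRPL3, and D308N against D308V 1. The replicate block left G27D with 0 and shRPL3 against shScramble with 18. In T189M against RPL3L-WT, where the replicate numbers follow the library kinds, it left 1. No label says that replicate numbers pair samples, and the block moved no other count by over 1.5 times.

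Leaving out 1 library gave 17 to 19 for shRPL3 against shScramble, 9 to 28 and 24 to 33 for RPL3L-WT against shRPL3 and shScramble, 0 to 21 for P291L, 0 to 6 for G27D, 5 to 18 for R161W, 1 to 2 for T189M, 11 to 24 for D308N, 10 to 27 for D308V and 10 to 25 for R343W against RPL3L-WT, 11 to 13 for P291L, 7 to 10 for D308N, 2 to 4 for D308V and 3 to 6 for R343W against shRPL3, 0 for D308N against D308V, and 36 to 46 for the F test. On the strand of the gene alone, 16.7% of the 42 windows held E2F letters and 42.9% CCAAT.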
